A study of Mus musculus with 10 samples.

Results

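The sham-operated hearts of a time course of cardiac pressure overload were compared between late days (days 14 and 28 after the operation) and early days (days 3, 5 and 7). The members are defined by operation and day and are 5 samples of the 10 in the series, 3 early and 2 late, with 1 sample per day. Each sample was left ventricle RNA of male C57BL/6J mice operated on at 8 weeks of age under isoflurane and kept under specific pathogen-free conditions. The other 5 samples came from mice of the same strain, sex and age after transverse aortic banding (TAB), which narrows the aortic arch and loads the left ventricle, on the same days. The sources do not state what the sham operation consisted of, nor how many mice gave each sample. Each stage pools different days, so the spread within a stage holds the time between its days, the difference between mice and array noise, which cannot be told apart.

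A sham operation exposes the animal to anaesthesia, wounding and recovery without the pressure load. A surgical wound is generally followed by an acute phase of cytokines and chemokines, by entry of neutrophils and then macrophages, and by fibroblast activation and matrix deposition, which subside over days to weeks. The comparison addresses whether such a response was stronger in the ventricle of sham hearts on the early days than on the late ones. The series holds no unoperated heart, so a response that ended before day 3 or stayed level to day 28 would not show.

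Of 16113 genes tested, 0 (0%) passed an adjusted p of 0.05 between late and early sham days (limma with Benjamini-Hochberg adjustment, lowest adjusted p = 0.26). At an unadjusted p under 0.05, 831 genes (5.16%) differed, of which 412 (2.56%) were higher and 419 (2.6%) lower on the late days. In the TAB hearts the same test on the same days gave 0 genes after adjustment (lowest adjusted p = 0.0683) but 2316 genes (14.4%) at an unadjusted p under 0.05. A slope on log2 day over the 5 sham samples, which would pick up a steady decline, was also called for 0% of genes (limma, lowest adjusted p = 0.663), with 1192 genes (7.4%) at an unadjusted p under 0.05. Among the 11181 genes whose spot was found by the image software on all 5 sham arrays, the 95% interval of the late minus early difference reached 0.46 to either side in the median on the log2 scale, where 1 is a 2-fold difference. Values after ± are this reach of the 95% interval unless marked as SE. The interval lay within 1 of 0 on either side for 9686 of these genes (86.6%). The differences themselves had an SD of 0.28 over these genes in sham hearts and 0.42 in TAB hearts.

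**Figure D1:**
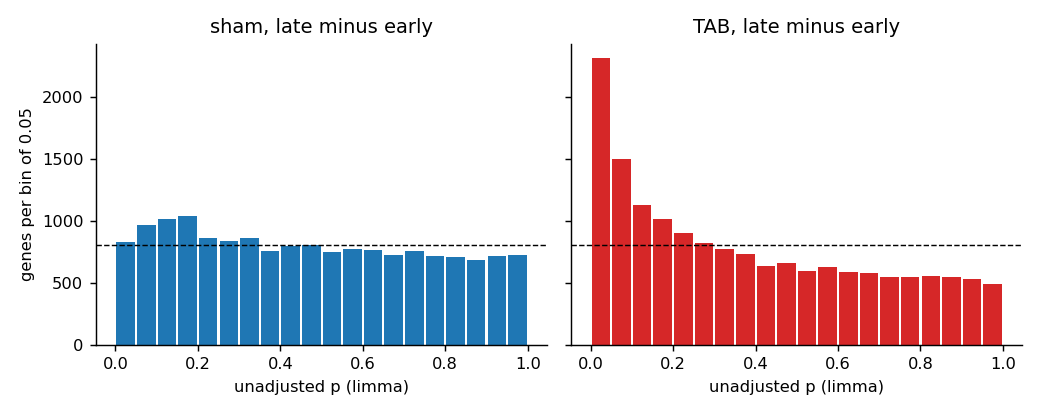
Genes per bin of 0.05 of the unadjusted limma p (x axis, from 0 to 1) for late minus early days in sham hearts (left) and TAB hearts (right), 3 early against 2 late samples each. The dashed line is the height that an even spread of p-values would give. The lowest bin holds 831 genes in sham hearts, near the line, and 2316 in TAB hearts.

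The late sham hearts differed from each other more than most early hearts differed from late ones. Among the genes found on all 5 sham arrays, 456 differed by at least 1 on the log2 scale between the samples of days 14 and 28. Between early samples this number was 70 for days 5 and 7, 114 for days 3 and 7 and 234 for days 3 and 5. Between an early and a late sample it ran from 189 for days 7 and 14 to 499 for days 3 and 28. The arrays of days 14 and 28 each stood apart on their own genes. On the day 28 array 161 genes lay more than 1 below the other 4 sham arrays while those 4 agreed within 0.75, against 36 genes on the day 14 array and 0 to 14 on the early ones. Among genes found on all 5 TAB arrays the same count ran from 2 to 20. Values are therefore given by day for the genes described in full.

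The spots of all 28 measured cardiomyocyte genes were found on all 5 sham arrays. The ventricular light chain Myl2 lay at 15.88 or above in all 5 sham samples. The cardiac troponins Tnnt2 (15.02 to 15.14) and Tnni3 (14.39 to 15.14) and the myosin heavy chain Myh6 (14.82 to 15.70), which atrial muscle also expresses, held these ranges over all 5 days. Over 28 measured cardiomyocyte genes the median late minus early difference was 0.00, beside 0.02 over all 16113 genes. Phospholamban, Pln, the brake of the sarcoplasmic calcium pump, was 14.91, 14.93 and 14.91 on days 3, 5 and 7, then 14.02 on day 14 and 14.69 on day 28. Its late values lay below every early value, but the difference of -0.56 ± 0.60 did not pass the test (limma, adjusted p = 0.834), and most of it came from day 14.

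Genes of wound repair showed no common fall in the sham hearts after day 3. Among 33 measured genes of matrix deposition and repair the median late minus early difference was 0.01, with 2 genes higher and 4 lower on both late days than on every early day. The median was 0.25 without day 28 and between -0.08 and 0.12 with any other single sham sample left out. Over all genes 12.4% were higher and 10.7% lower on both late days than on every early day. Timp1, an inhibitor of matrix metalloproteinases, was 6.93, 6.84 and 7.33 on days 3, 5 and 7 and 7.01 and 7.02 on days 14 and 28, a difference of -0.02 ± 0.51. The secreted matrix protein Spp1 (osteopontin) was 6.24, 6.84 and 6.62 on the early days and 6.68 and 6.39 on the late ones. Fn1, fibronectin, was 7.05, 7.17 and 6.98 and then 7.31 and 7.07. Postn, the periostin of activated fibroblasts, was 10.30, 10.25, 10.22, 10.30 and 10.42. The early and late sham values of these 4 genes overlapped or met. In TAB hearts the same probes were far higher on the early days and lower on day 28, Timp1 from 12.90, 13.67 and 13.22 to 9.66, Spp1 from 11.58, 11.81 and 11.47 to 8.26, Fn1 from 10.004, 10.96 and 10.70 to 8.37 and Postn from 13.81, 14.08 and 13.98 to 12.82. The TAB median log2 intensity over the 33 matrix genes was 10.18, 10.52 and 10.43 early, 10.21 on day 14 and 8.58 on day 28.

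**Figure D2:**
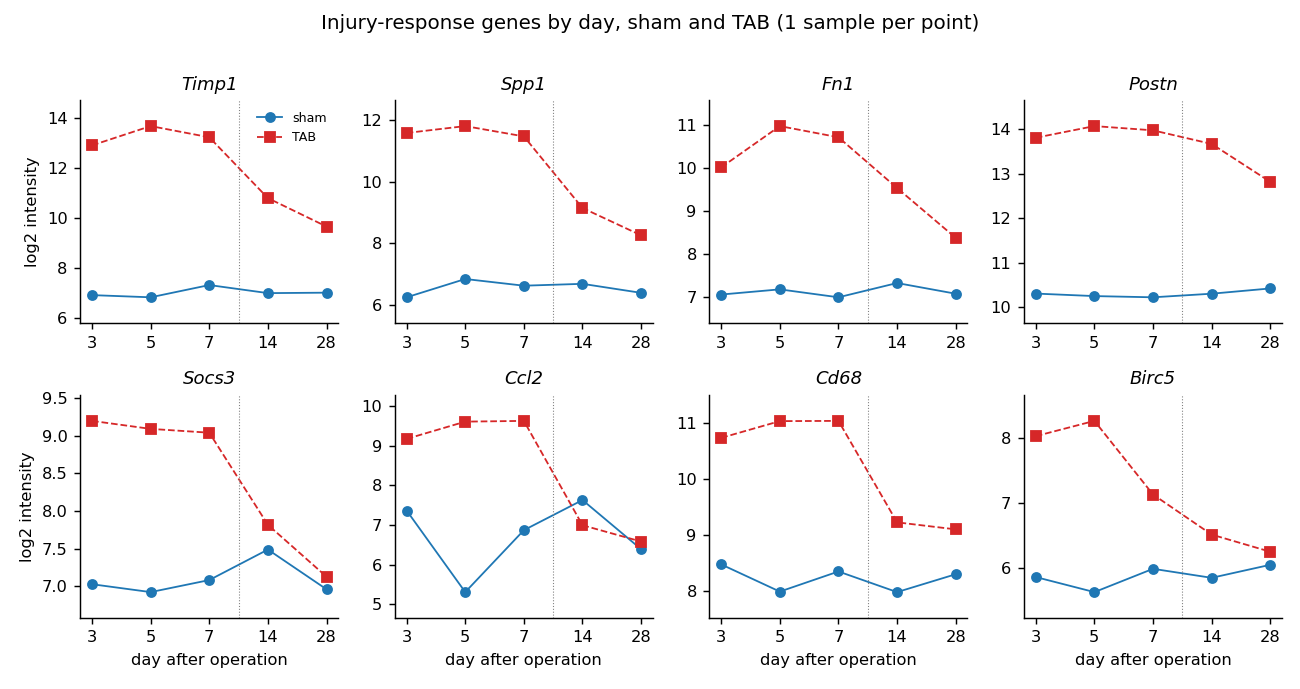
Log2 intensity (y axis, scale differs by panel) on each day after the operation (x axis) of 8 genes of wound repair, inflammation, macrophages and cell division in sham (circles) and TAB hearts (squares), 1 sample per point; the dotted line divides early from late days. The sham values of Timp1, Spp1, Fn1 and Postn stay level while the TAB values of all 8 genes are lower on day 28 than on days 3, 5 and 7.

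The sham values of 25 of the 33 matrix genes excluded a 2-fold fall from early to late days, in that the lower end of the 95% interval lay above -1. Each interval is that of a single gene without adjustment. No share over all genes is given for this count or the like counts below. Of the 4 matrix genes that were lower on both late days, Mmp2, a gelatinase, stood at 10.56, 10.26 and 10.18 early, at 10.001 on day 14 and at 9.72 on day 28. Sparc, a collagen-binding protein, stood at 11.64, 11.60 and 11.56 and then at 11.33 and 11.27. The shifts of -0.47 in Mmp2 and -0.29 in Sparc were small and did not pass the test (limma, adjusted p = 0.834 for each). The other members of this kind were Mfap4 (-0.70) and Col11a1 (-0.54), the latter found on only 1 sham array. Against the list, Ctgf, a matricellular growth factor target, was higher late by 0.71 ± 0.81, with 9.45, 10.33 and 9.58 early and 10.34 and 10.64 late. Col5a1 was higher by 1.13 ± 1.14 and was found on 3 sham arrays.

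Genes of acute inflammation as a list were not lower late either. Over 27 measured cytokines, chemokines, acute-phase proteins and adhesion molecules the median difference was 0.18, with 3 genes higher and 2 lower on both late days (12.4% and 10.7% of all genes). With single sham samples left out it ran from 0.01 to 0.32. Socs3, the feedback inhibitor that interleukin 6 signalling induces, was 7.02, 6.92 and 7.08 early and 7.49 and 6.96 late. The monocyte chemoattractant Ccl2 varied within the early days as much as between stages, with 7.37, 5.31 and 6.87 early and 7.63 and 6.39 late, a difference of 0.50 ± 1.89. Il6 itself was found on none of the 5 sham arrays and S100a8, a defining neutrophil gene, on none either. The vascular adhesion molecules Icam1 and Vcam1 were slightly higher late, by 0.38 ± 0.40 and 0.24 ± 0.38. Lbp, the lipopolysaccharide-binding protein of the acute phase, was the member lower late that was found on all 5 arrays, with 5.61, 6.19 and 5.96 early and 5.23 and 5.39 late (-0.61 ± 0.56, limma adjusted p = 0.834). Intervals were wide here, and for 16 of the 27 genes they excluded a 2-fold fall.

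Markers of the cell types that a wound draws in gave a similar picture. Over 19 measured macrophage genes the median difference was -0.13, with 0 higher and 3 lower on both late days (12.4% and 10.7% of all genes). Their summed linear intensity was 9867, 9843 and 8842 on days 3, 5 and 7 and 8242 and 9835 on days 14 and 28. These sums overlapped between stages, and the median was 0.01 without day 14 and -0.19 without day 28. In bulk tissue fewer cells of a type and less RNA per cell cannot be told apart. The 3 lower members were Cd14, the co-receptor for lipopolysaccharide, the mannose receptor Mrc1 and the complement component C1qb. Cd14 was even within each stage, with 7.93, 8.06 and 7.91 early and 7.31 and 7.32 late (-0.65 ± 0.34, limma unadjusted p = 0.00482, adjusted p = 0.834). Mrc1 and C1qb were lower by less, with differences of -0.32 ± 0.48 and -0.32 ± 0.48, each with its lowest value on day 14. Cd68, a lysosomal protein of macrophages, was 8.48, 7.99 and 8.35 and then 7.98 and 8.30. Of 11 neutrophil genes 1 was higher and 1 lower late, and their summed intensity of 393 to 502 was low on every day. The median was 0.10 over 13 endothelial, -0.02 over 12 fibroblast, 0.11 over 8 mural, -0.06 over 12 lymphocyte, 0.04 over 10 adipocyte and 0.10 over 8 mesothelial genes. With single sham samples left out these medians ran from -0.23 (fibroblast genes without day 14) to 0.25 (mesothelial genes without day 28). Skeletal muscle genes had a median of -0.06 over 9 genes, and 6 of the 15 on that list had a scaled intensity below 1 on an array. Erythroid genes had a median of -0.33 over 4 genes and Schwann cell genes 0.28 over 5, both mostly dim. The erythroid median ran from -0.52 without day 28 to -0.13 without day 14 and the 1 gene found on all sham arrays, Alas2, differed by 0.25. The Schwann cell median ran from -0.015 without day 28 to 0.45 without day 14, and was 0.02 without day 3.

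MHC class II genes, which antigen-presenting cells express, had a median of -0.33 over 9 genes. Of these 1 was lower and 0 higher on both late days (10.7% and 12.4% of all genes). The median was -0.035 without day 3, -0.14 without day 14, -0.43 without day 28 and -0.55 without day 5. Cd74, the invariant chain, was 9.79, 8.92 and 9.12 early and 8.33 and 8.50 late, a difference of -0.86 ± 0.77 that did not pass after adjustment (limma, unadjusted p = 0.0349, adjusted p = 0.834). The early days themselves differed. Day 3 held the highest sham value for 6 of the 9 genes, against 21.8% of all genes, and day 5 the lowest for 7. H2-Aa was 13.06 on day 3, 12.16 and 12.43 on the other early days and 12.23 and 12.41 late. H2-Ab1 was 9.15 on day 3 and between 7.80 and 8.20 on the other days. In both genes days 5 and 7 lay close to the late days and day 3 stood above them.

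Interferon-stimulated genes had a median of 0.11 over 25 genes (0.41 without day 14 and -0.18 without day 28). Of these genes 3 were higher and 0 lower on both late days (12.4% and 10.7% of all genes). Day 28 held the highest sham value for 13 of them and day 3 for 11, against 21.3% and 21.8% of all genes, and day 14 the lowest for 10, against 20.9%. Cell division genes had a median of -0.02 over 34 genes, of which only 12 were found on all 5 sham arrays (0.27 without day 14 and -0.12 without day 28). Birc5, which guards chromosome segregation, was 5.86, 5.63 and 5.99 early and 5.85 and 6.05 late. Mki67 was found on no sham array. The mitotic kinesin Kif2c was found on all 3 early arrays and on neither late array. Its mean was 2.78-fold lower on the late days (means of 5.59 and 4.12 on the log2 scale, limma adjusted p = 0.834). Of 16113 genes, 16 were found on every early and no late array, and 82 on every late and no early array. These rules ask for unlike numbers of arrays, so the counts cannot be set against each other. The bound of such a gene puts the dimmest found spot of an array in place of a lower value. By this bound the early-only genes were led by Flt3, a cytokine receptor of haematopoietic progenitors and dendritic cells (at least 3.9-fold lower late). The late-only genes were led by Spa17, a sperm surface protein (at least 5.67-fold higher). All of these probes were dim, near the limit at which spots were found.

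The change from early to late days was set against that of TAB hearts in 1 fit over all 10 samples. The TAB change minus the sham change passed an adjusted p of 0.05 for 5 genes (0.031%), and at an unadjusted p under 0.05 it was negative for 6.84% and positive for 4.29% of genes. Sprr1a, a cornified envelope protein that stressed cardiomyocytes induce, was 8.05, 7.72 and 7.86 on the early and 7.75 and 8.56 on the late sham days, against 12.59, 12.24 and 11.94 and then 8.24 and 7.90 in TAB. The change differed by -4.47 ± 0.40 (SE, limma adjusted p = 0.025). Serpinb1a, a neutrophil elastase inhibitor, was 6.85, 6.21, 6.65, 6.76 and 6.36 in sham hearts and the change differed by -4.10 ± 0.44 (SE, adjusted p = 0.0428). The probe shared by Sfn and Gm7850, listed as Sfn|Gm7850, differed by -3.07 ± 0.33 (SE, adjusted p = 0.0428). The other called genes were Rfx4, found on 0 of 10 arrays, and Islr2, found on 6. With day as a replicate block 0 genes were called (lowest adjusted p = 0.19084). When single samples were left out the number ran from 0, without sham day 3, 7 or 28 or TAB day 3, to 168 without sham day 14. No list gene passed after adjustment. At an unadjusted p under 0.05 the TAB change was the more negative for 13 of 19 macrophage genes, 12 of 33 matrix genes, 11 of 27 inflammation genes and 12 of 34 cell division genes. The macrophage median was -0.91 in TAB hearts and -0.13 in sham hearts, the inflammation median -0.91 and 0.18, and the matrix median -0.65 and 0.01. The matrix fall in TAB hearts lay mostly on day 28. Their median log2 intensity over the matrix genes was 10.18 to 10.52 early, 10.21 on day 14 and 8.58 on day 28. The MHC class II medians lay closer, at -0.52 and -0.33, and the median of the genes' own differences there was -0.12. The largest differences among genes found on all 10 arrays were those of Sprr1a, Serpinb1a, Adam8 (-3.66 ± 0.51, SE), Fos (-3.27 ± 0.96, SE) and Ccl2 (-3.18 ± 0.84, SE), and the last 3 did not pass after adjustment (limma, adjusted p = 0.0884 for Adam8, 0.308 for Fos and 0.265 for Ccl2). Without sham day 14 the difference of Fos was -1.91 ± 0.49 (SE), and without sham day 28 it was -4.64 ± 0.49 (SE).

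**Figure D3:**
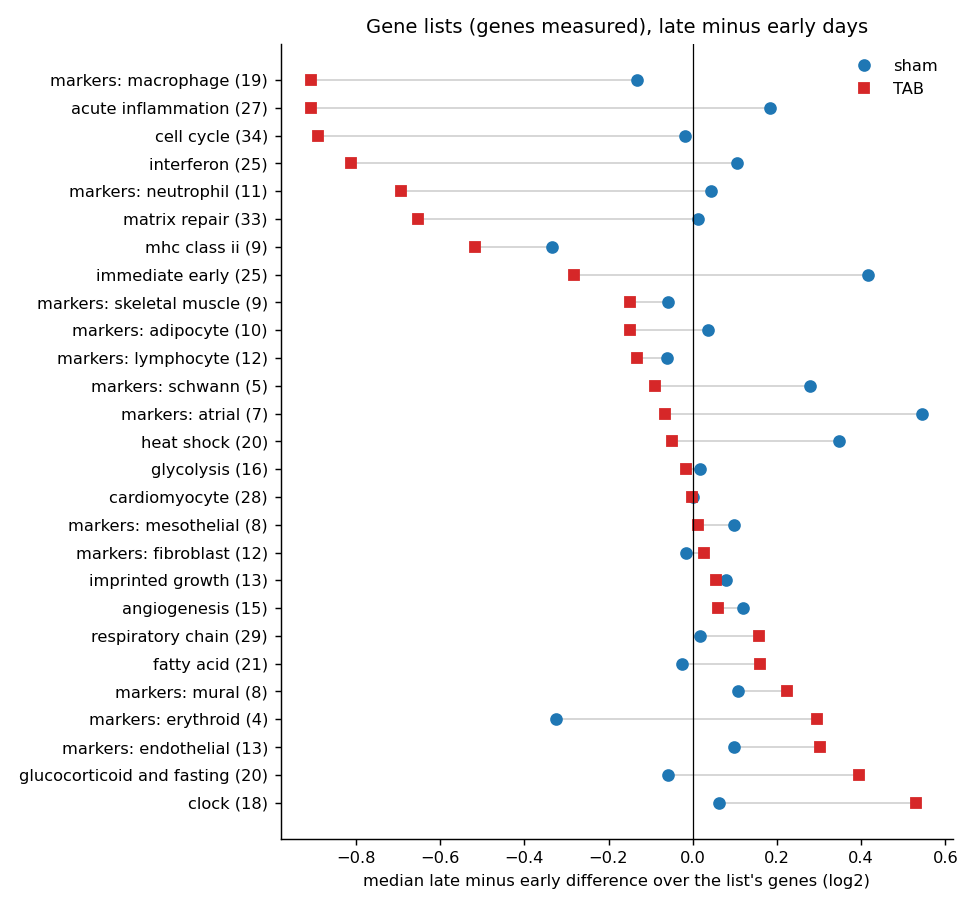
Median late minus early difference on the log2 scale (x axis) over the measured genes of 27 lists (y axis, number of genes in brackets) in sham (circles) and TAB hearts (squares), joined by a grey line. The sham medians of macrophage, inflammation, cell cycle, interferon and matrix lists lie between -0.13 and 0.18, and the TAB medians of the same lists between -0.91 and -0.65, while the MHC class II medians are -0.33 and -0.52.

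Beyond the injury lists, 201 genes (1.25%) were lower and 171 (1.06%) higher on both late sham days than on every early day with a mean difference of at least 1. Most of these were dim. Among the genes found on all 5 sham arrays 50 (0.447%) were lower and 7 (0.0626%) higher by this rule. With 2 late against 3 early samples an exact permutation test cannot go below 0.1 on one side, so this is a description. Of the 50 lower genes 25 were low on day 28 alone, with the other 4 sham values within 0.75 of each other. For 6 genes both late values lay at least 1 below every early value, and for 0 genes at least 1 above.

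The lower genes were led by 5730409E04Rik, a gene known by its clone name, with 12.16, 11.58 and 11.79 early and 8.33 and 8.30 late (-3.53 ± 0.55, limma unadjusted p = 1.61e-05, adjusted p = 0.26). It was not called here and passed in 4 of the alternative settings. In TAB hearts the same probe was 8.63 on day 14 and between 11.42 and 12.19 on the other days, so that its low level was not shared by all late arrays. Mei1, a meiosis gene, was 7.95, 7.79 and 8.32 and then 6.40 and 6.02. Fancm, a DNA repair helicase, was 7.82, 7.21 and 7.34 and then 5.88 and 5.80. Nrsn1, a neuronal vesicle protein, was 11.05, 10.73 and 11.01 and then 9.21 and 7.84. In these 3 genes both late samples were low. By contrast Iqub (9.93, 9.86 and 9.87 early, 9.78 on day 14, 5.84 on day 28) and the keratin Krt79 (9.28, 9.06, 8.96, 8.94 and 5.84) were low on day 28 alone. The chloride transporter Clcn5 (11.20, 10.60, 10.46, 10.37 and 6.86) was lowest on day 28 too, but its other values spread over more than 0.75. Day 28 was the lower late day in 14 of the 15 lowest genes, the exception being Chst5, a sulfotransferase, at 8.76 on day 14 and 11.16 on day 28.

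For 13 of these 15 genes the early sham values stood above every TAB value, on early and late days. Mei1 in TAB hearts was between 6.82 and 7.40, and Fancm between 6.72 and 7.04, both between the early and the late sham levels. Among all genes found on the 5 sham arrays 2085 (18.6%) had every TAB value below every early sham value, and among the 50 lower genes 39 had it. The 50 genes were chosen for high early sham values, which favours this order.

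**Figure D4:**
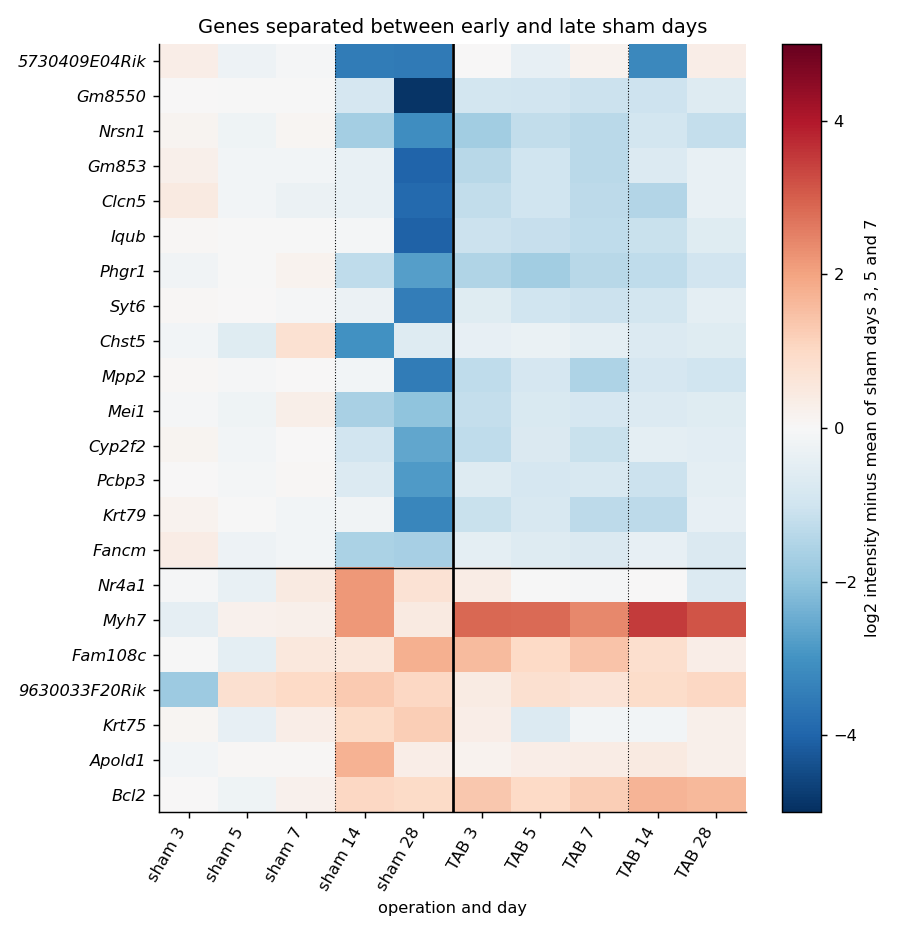
Log2 intensity minus the mean of sham days 3, 5 and 7 (colour, blue below and red above) for the 15 lowest (above the line) and the 7 higher genes found on all 5 sham arrays, in each sham and TAB sample (columns). The row Myh7 is a probe shared with LOC100862557. Day 28 is the lower of the late columns in 14 of the 15 lower genes.

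The 7 higher genes were led by Nr4a1, an orphan nuclear receptor and immediate-early gene, with 9.0, 8.69 and 9.50 early, 11.23 on day 14 and 9.77 on day 28. The difference was 1.44 ± 1.29 (limma, unadjusted p = 0.0353, adjusted p = 0.834), made of 2.16 on day 14 and 0.71 on day 28. Apold1, an endothelial early response gene, was 8.30, 8.46 and 8.48, then 10.14 on day 14 and 8.74 on day 28. The probe shared by Myh7, the slow myosin heavy chain, and LOC100862557 (listed as LOC100862557|Myh7) was 9.36, 10.02 and 10.05, then 11.96 and 10.25. In these 3 genes day 14 stood apart and day 28 lay little above the early days. Bcl2, which restrains apoptosis, was even on both late days, with 5.22, 5.00 and 5.43 early and 6.26 and 6.19 late (1.01 ± 0.46, unadjusted p = 0.00242, adjusted p = 0.834). Its TAB values were 6.21 to 6.91 on all days. Krt75, a hair follicle keratin, was 6.35, 5.83 and 6.57 and then 7.21 and 7.46. The others were Fam108c and 9630033F20Rik, the latter low on day 3 alone (6.71 against 9.33 to 9.81 on the other days).

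The high values of day 14 extended to the immediate-early genes, which cells switch on within minutes of a stimulus. Over 25 measured members the median late minus early difference was 0.42, with 4 higher and 2 lower on both late days (12.4% and 10.7% of all genes). Day 14 held the highest sham value for 13 of 25, against 21.7% of all genes. Without day 14 the median was -0.02. Fos, a subunit of the AP-1 factor, was 8.03, 7.01 and 7.90 early, 10.18 on day 14 and 7.44 on day 28. Egr1, a zinc finger factor, was 11.13, 9.34, 11.01, 13.36 and 9.46. Cyr61, a matricellular protein, was 8.58, 8.40, 8.38, 9.99 and 8.20, and the phosphatase Dusp1 10.78, 10.70, 10.60, 11.55 and 10.74. On day 28 Fos, Egr1 and Dusp1 lay among the early values and Cyr61 below them. The zinc finger factor Klf4 was higher on both late days, with 8.97, 8.62 and 8.50 early and 9.38 and 9.20 late (0.59 ± 0.51, limma adjusted p = 0.834). Fosl1 went against the list, at 8.37, 8.16 and 8.07 early and 7.59 and 7.74 late.

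**Figure D5:**
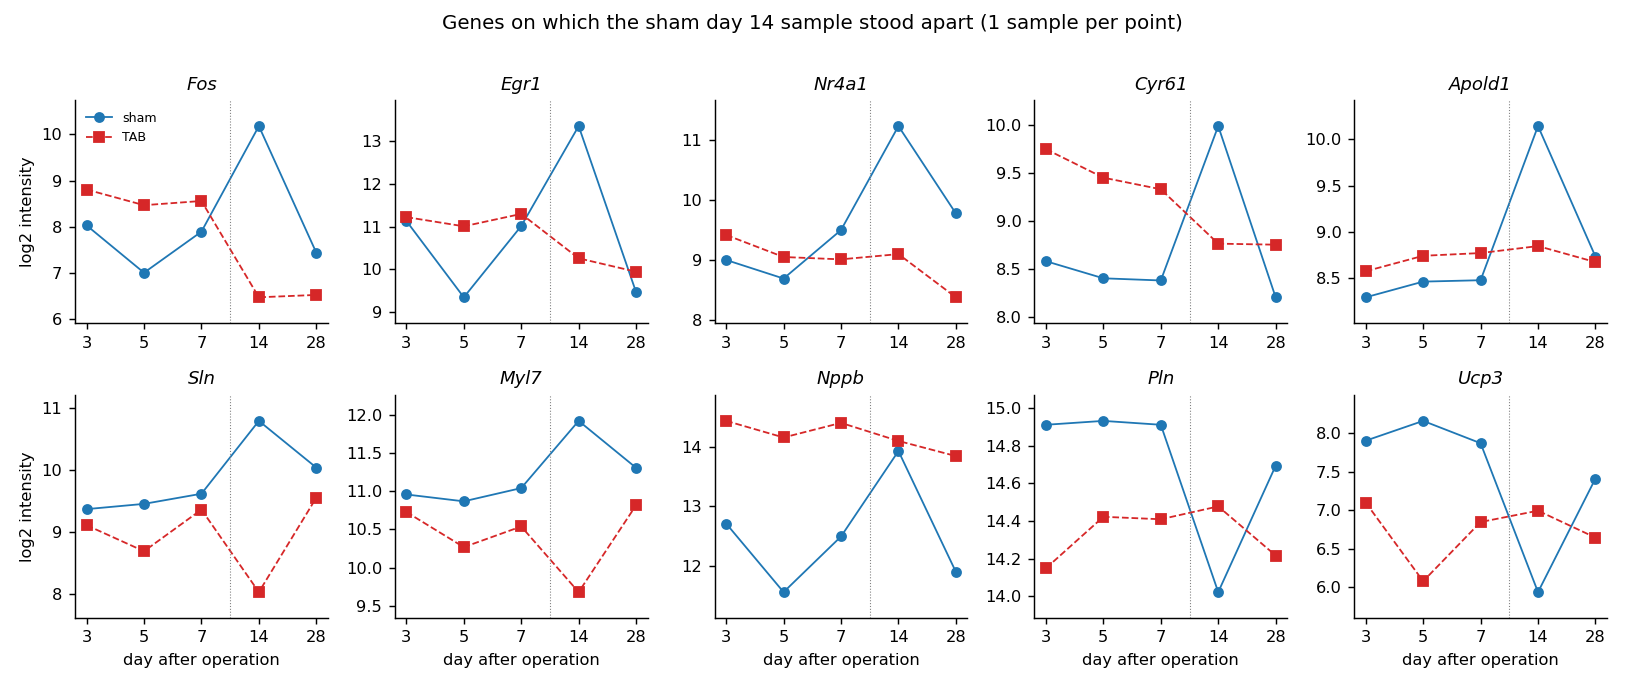
Log2 intensity (y axis, scale differs by panel) by day after the operation (x axis) of immediate-early, atrial, natriuretic, calcium handling and uncoupling genes in sham (circles) and TAB hearts (squares), 1 sample per point. The sham sample of day 14 is the highest for Fos (10.18), Egr1 (13.36), Nr4a1, Cyr61, Apold1, Sln, Myl7 and Nppb and the lowest for Pln and Ucp3.

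Immediate-early promoters are known for cyclic AMP response elements (CRE, TGACGTCA, read here on either strand; it is its own reverse complement) and for CArG boxes, which bind serum response factor. Both were searched in windows of 300 bases around gene starts (RefSeq, GRCm38.p6), which were at hand for 19 of the 25 measured immediate-early genes. The CRE letters occurred in 3 of the 19 (Dusp1, Btg2 and Maff) and in 1.79% of 32851 windows, and the CArG box in 2 of the 19 (Egr2 and Zfp36) and in 1.63% of windows. A gene was counted for a match in any of its windows, while the percentages are of single windows, so these measures are not alike. Neither motif occurred in the 4 of the 7 higher genes that had a window at hand. A match is a run of letters and not a shown binding site. The stretches below are from genes whose sham value was highest on day 14, with the motif in capitals, and lie upstream of the gene start.
Dusp1, CRE, chr17:26508599-26508624, minus strand: tagggcgggTGACGTCAccgcccggt
Egr2, CArG box, chr10:67537788-67537815, plus strand: ttcctcagtCCATATATGGgcagcgacg
Dusp1 was found on all 5 sham arrays and Egr2 on only 1, so that the level of Egr2 carries little weight.

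Atrial genes were high on day 14 as well. The atrial markers had the highest list median, 0.54 over 7 genes, with 3 higher and 0 lower on both late days (12.4% and 10.7% of all genes). Day 14 held the highest sham value for 5 of the 7, against 21.7% of all genes. Their summed linear intensity was 12745, 15595 and 15733 on the early days, 28350 on day 14 and 16965 on day 28. Nppa was the largest part of each of these sums, and in TAB hearts the sums ran from 34163 to 42715. Sln, the atrial calcium pump regulator sarcolipin, was 9.36, 9.45 and 9.61, then 10.79 and 10.03 (0.94 ± 0.68, limma unadjusted p = 0.0165, adjusted p = 0.834). Myl7, the atrial light chain, was 10.96, 10.87 and 11.04, then 11.92 and 11.30. The natriuretic peptide genes Nppa (12.73, 13.15, 12.82, 13.98 and 13.08) and Nppb (12.71, 11.56, 12.49, 13.93 and 11.90) were highest on day 14 too. Bmp10, a defining atrial gene, was found on 3 sham arrays and was 4.17 on day 14. The list median was 0.23 without day 14 and 0.88 without day 28. The part of atrial tissue in the day 14 values was not tested. Ucp3, a mitochondrial uncoupling protein, was 7.91, 8.16 and 7.87 early, 5.93 on day 14 and 7.41 on day 28 (-1.31 ± 1.18, adjusted p = 0.834). The fasting-responsive Pdk4 (11.96, 12.53, 11.72, 10.33 and 12.27) and Angptl4 (10.53, 8.69, 8.06, 6.95 and 8.73) were also lowest on day 14.

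Chaperone genes of the heat shock and unfolded protein responses had a median of 0.35 over 20 genes, with 6 higher and 2 lower on both late days (12.4% and 10.7% of all genes) and day 14 highest for 11 of 20 (21.7% of all genes). Without day 14 the median was 0.12. The endoplasmic reticulum chaperones Pdia4 (7.22, 6.79 and 7.16 early, 8.06 and 7.13 late), Sdf2l1 (6.64, 6.36, 6.91, 7.96 and 6.56) and Hsp90b1 (10.12, 9.91, 10.32, 10.87 and 10.30) were highest on day 14. Day 28 was highest for 3 of the 20 genes, against 21.3% of all genes, namely Hspa1a, Hspa1b and Dnajb1. Hspa1b, an inducible cytosolic chaperone, was 6.57, 6.61 and 6.71 early, 6.59 on day 14 and 8.37 on day 28, and its co-chaperone Dnajb1 was 9.05, 9.13, 9.47, 9.19 and 10.28. The co-chaperone Bag3 was slightly higher on both late days (11.69, 11.70 and 11.66, then 12.10 and 11.92, a difference of 0.32 ± 0.35).

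Within the early days, glucocorticoid and fasting responsive genes were highest on day 5. Day 5 held the highest sham value for 15 of 20 measured members, against 19.2% of all genes. Fkbp5, a co-chaperone of the glucocorticoid receptor, was 7.86, 9.57 and 6.91 early and 8.50 and 8.90 late. Zbtb16 was 7.62, 9.59, 7.62, 6.47 and 9.25, and the metallothionein Mt2 8.79, 11.99, 10.06, 10.02 and 10.92. These values went up and down across the stages, and the list's late minus early median was -0.06, 0.27 without day 5 and -0.31 without day 3. The circadian output gene Dbp did so too, at 8.02, 11.50, 12.52, 8.59 and 12.36, and 0 of 18 clock genes were separated between stages, where 12.4% of all genes were higher and 10.7% lower.

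Genes of energy metabolism had list medians near 0. The median difference was 0.02 over 29 respiratory chain genes, -0.02 over 21 fatty acid oxidation genes and 0.02 over 16 glycolytic genes. Single members were separated in both directions, 4 higher and 4 lower among respiratory chain genes and 4 higher and 1 lower among glycolytic genes, beside 12.4% higher and 10.7% lower over all genes. Outside energy metabolism, the median was 0.08 over 13 imprinted growth genes and 0.12 over 15 genes of vessel growth, the latter 0.35 without day 28 and -0.09 without day 14. For all 29 respiratory chain genes the 95% interval excluded a 2-fold fall, and for 28 a 2-fold rise. Sdhc, a subunit of succinate dehydrogenase, was 13.40, 13.38 and 13.43 early and 12.93 and 13.04 late (-0.42 ± 0.33, limma unadjusted p = 0.024, adjusted p = 0.834). The oxidation enzyme Acads was 9.74, 9.66 and 9.76 and then 9.38 and 9.31 (-0.37 ± 0.34). Ppargc1a, the coactivator of mitochondrial biogenesis, was 6.60, 7.25 and 7.17 and then 7.40 and 7.59, within a wider interval (0.48 ± 0.64).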

How the data were processed

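Left ventricle RNA was labelled with Cy5 and hybridized to the Mouse Whole Genome OneArray v2, an array read in 1 colour, with 1 sample per operation and day (10 arrays). The authors deposited the raw intensity of 26423 probes after a background subtraction whose method is not given in the sources used here (GenePix 4.1, as the methods state), with a flag that was read as spots not found where negative, and a detection p-value that was not used. Of these probes 3633 carry no symbol and were left out of the gene counts. Raw medians were 42 to 57 on the sham arrays, 40.2 to 45.4% of spots were not found and 3 probes were saturated on a sham array; the number of arrays limits the precision.

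After the study's methods, arrays were scaled to a common median, probes below 1 on any array removed, all 10 arrays given the same distribution by quantile normalization (rank medians) and log2 transformed, with each gene read from the probe with the largest summed absolute TAB to sham log2 ratio (16113 genes). The methods take rank medians for each condition, which may mean separate distributions for sham and TAB arrays; here all 10 arrays shared one distribution, with the other reading as an alternative, and the numbers of probes and genes kept are not those of the study. Late and early sham samples were compared with limma 3.58.1 (R 4.3.3, lmFit and eBayes) on the 5 sham samples, adjusted over all genes by Benjamini-Hochberg at 0.05. The slope on log2 day and the difference from the TAB change used the same tool. p-values measure the spread between samples of different days. On simulated data for late against early sham days (16113 genes, 200 changed), 62% of log2 changes of 2 were recovered with 5 false calls and 74.5% of changes of 3 with 10.

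Genes named are the 15 lowest and up to 15 highest differences among genes found on all 5 sham arrays whose stages did not overlap and differed by at least 1 (7 were higher), up to 5 bounds in each direction, the 5 largest differences from TAB found on all 10 arrays, and members of gene lists that did not overlap between stages, went against their list or define it. For a gene found in 1 stage only, the bound sets its mean there against the higher of its own value and the dimmest found spot on each other array. The members and lists were chosen with earlier results of these data known. A TAB sample labelled as day 14 in its title carries 15 days in another label and was used as day 14. Alternatives covered scaling, filters, probe choice, moderation and leaving out samples.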

Additional observations from a re-analysis of the deposited data

Results flagged for a closer look

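The change from early to late days differed between TAB and sham hearts, in a test of the difference itself, for 5 genes (TAB change minus sham change on the log2 scale, limma adjusted p of 0.025 to 0.0428). With day as a replicate block it was called for 0 genes (lowest adjusted p = 0.19084), as it was without sham day 3, 7 or 28 or TAB day 3. It was -4.47 for Sprr1a, -4.10 for Serpinb1a and -3.07 for Sfn|Gm7850, whose sham values overlapped between stages and whose TAB values were higher on all 3 early days than on both late ones. It was -2.31 for Rfx4, whose spot was found on 0 of 10 arrays, and 2.05 for Islr2, found on 6, so these values describe dim spots. Groups of 2 or 3 samples were not tested for outliers.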

How the results depend on the processing

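The sham comparison called 0 genes under most settings and 1 gene with 50 added to every intensity, with probes below 1 set to 1, with the lowest tertile left out, or with only genes found on all sham arrays, and 2 with the trend and robust options. Leaving out 1 sham sample gave 0 to 1. The slope on log2 day called 0 genes in every setting and with each sample left out. Genes separated by at least 1 numbered 372 (171 higher, 201 lower). They were 32 (5 and 27) with 50 added, 951 (504 and 447) with probes set to 1, 64 (10 and 54) without the lowest tertile and 59 (8 and 51) with probes not found on all sham arrays removed before 1 probe per gene was chosen, so the higher ones were mostly dim. Leaving out samples gave 555 to 1117 (270 to 430 higher, 279 to 687 lower), where fewer samples have to be separated. The difference from the TAB change, called for 5 genes, was called for 2 with the mean of each rank, 76 with 50 added, 1 with probes set to 1, 9 without the lowest tertile, 26 among genes found on all 10 arrays and 18 with trend and robust. It ran from 0 to 168 with single samples left out (168 without sham day 14, 0 without sham day 28, sham day 3, sham day 7 or TAB day 3). With day as a replicate block it was called for 0 genes. TAB and sham samples of a day share only the day, and their deviations correlated at 0.0252 to 0.0707. The causes were not tested.

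5730409E04Rik, not called in the reported comparison, passed with 50 added (-3.34), with the lowest tertile left out, with only found genes, and with trend and robust (-3.53 in each). The sham late minus early difference of Serpinb1a, slightly negative in the reported setting, turned to 0.015 with median scaling only. The values that follow are sham late minus early differences too. Single uncalled differences changed sign as samples were left out in turn, Fos over -0.20 to 2.53, Egr1 over -1.03 to 2.86 and Pdk4 over -1.74 to 0.20 (each with the sign turned without day 14), Hspa1b over -0.038 to 1.74 and Sprr1a over -0.13 to 0.68 (turned without day 28), Timp1 over -0.11 to 0.13, Spp1 over -0.19 to 0.11, Ccl2 over -0.12 to 1.12 and Serpinb1a over -0.21 to 0.19. Over the alternatives, 24 of 378 list medians moved beyond the spread within stages, among them those of the macrophage (0.01), fibroblast (-0.23), immediate-early, heat shock and atrial genes without day 14, of the macrophage (-0.19) and matrix genes (0.25) without day 28 and of the glucocorticoid and fasting genes (0.27) without day 5, and 14 of 716 values of 45 named genes had the other sign.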
